A study of Mus musculus with 20 samples.

Results

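The livers of 4 mice that received the siRNA named PPARa were compared with the livers of 4 mice that received the vehicle alone, Ringer's solution. These are 8 of the 20 arrays of the series, taken by what their titles name as the treatment, and all 23493 probes of the array were used. Every mouse of an siRNA group received 40 µg of siRNA dissolved in Ringer's solution, and the volume injected was 10% of the body weight. The injection was hydrodynamic, that is, a fast push of a large volume through the tail vein that drives nucleic acid from the blood into hepatocytes. Livers were taken after 48 h. An siRNA is a short double-stranded RNA that guides the cutting of a matching mRNA, here that of Ppara. Every mouse, with siRNA or with vehicle, went through the same kind of injection, and an untreated liver was not analysed here. The other groups of 4 mice each were used only to show where PPARa siRNA differed: PPARa-M siRNA, directed at another stretch of the Ppara mRNA, and the GL3 and SEAP-M control siRNAs, directed at reporter genes. Strain, sex and age are not given in the sample labels. The labels name 4 animals per group and give each array a letter from A to D within its group, called replicate here. The titles also carry a running number that goes group by group and do not say what it stands for. Treatment and that order cannot be told apart.

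PPAR-alpha, the product of Ppara, is a nuclear receptor of the liver that binds fatty acids and, paired with a retinoid X receptor, switches on genes for the uptake, activation and breakdown of fatty acids in mitochondria and peroxisomes. It is best known for the response to fasting and to fibrate drugs, and in rodents for peroxisome proliferation and growth of the liver. Immediate-early genes are another kind of gene that matters below. Their mRNAs are made within minutes of a stimulus, without new protein synthesis, and are short-lived, and many of them code for transcription factors.

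The value of a probe is the ratio of 1 liver to a common reference, pooled liver RNA of 4 vehicle mice hybridized to the same 2-colour array, given here on the log2 scale, so that 0 is the level of the pool and 1 is a doubling. Positive values were read as higher in the mouse than in the pool. This direction is likely rather than stated: the titles name the pool before the mouse, the labels give the pool Cy3 and the mouse Cy5, and the study describes Ppara as lowered by its siRNA. A ratio to a liver pool carries no level, so genes cannot be compared with each other in abundance and the liver origin of the samples cannot be checked against markers at or near 0. It can be said that 18 hepatocyte markers had a median log2 difference of 0.00 between PPARa siRNA and vehicle, with members on both sides. In a bulk tissue, fewer cells of a type and less RNA per cell cannot be told apart. The middle of the distribution was near 0 on each array, with array medians of the log2 ratio between -0.01 and 0.02 over these 8 arrays. The spread was wider with PPARa siRNA, with an interquartile range of 0.189 to 0.262 against 0.152 to 0.201 with vehicle, and 119 to 301 probes per array lay more than 2-fold from the pool, against 27 to 78. With GL3 these ranges were 0.147 to 0.197 and 51 to 212, and with SEAP-M 0.173 to 0.283 and 51 to 386. With PPARa-M they were 0.244 to 0.414 and 300 to 866. The labels do not say whether the 4 mice of the pool are the 4 vehicle mice measured here.

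The mRNA that the siRNA targets is described first, in every mouse. Averaged over its 4 probes, its log2 ratio was 0.09, -0.42, -0.29 and -0.35 in PPARa siRNA replicates A, B, C and D and 0.22, -0.11, -0.03 and 0.15 in the vehicle mice. Replicates B to D lay below every vehicle mouse, and replicate A lay above 2 of the 4. The mean difference of -0.30 put Ppara at 81.1% of vehicle (two-sided exact permutation test, p = 0.0857, where 4 mice against 4 can reach 0.0286). In limma, which fits each gene and then adjusts over all genes, the p was 0.0894 before and 0.967 after adjustment. The 4 probes gave nearly the same difference, from -0.32 to -0.28. Without replicate A the difference was -0.41 (exact p = 0.0571, the smallest that 3 mice against 4 allow). With PPARa-M siRNA the mean of the same probes was at -0.59, -1.05, -0.59 and -0.62, with GL3 between 0.00 and 0.20, and with SEAP-M between -0.16 and 0.80.

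**Figure D1:**
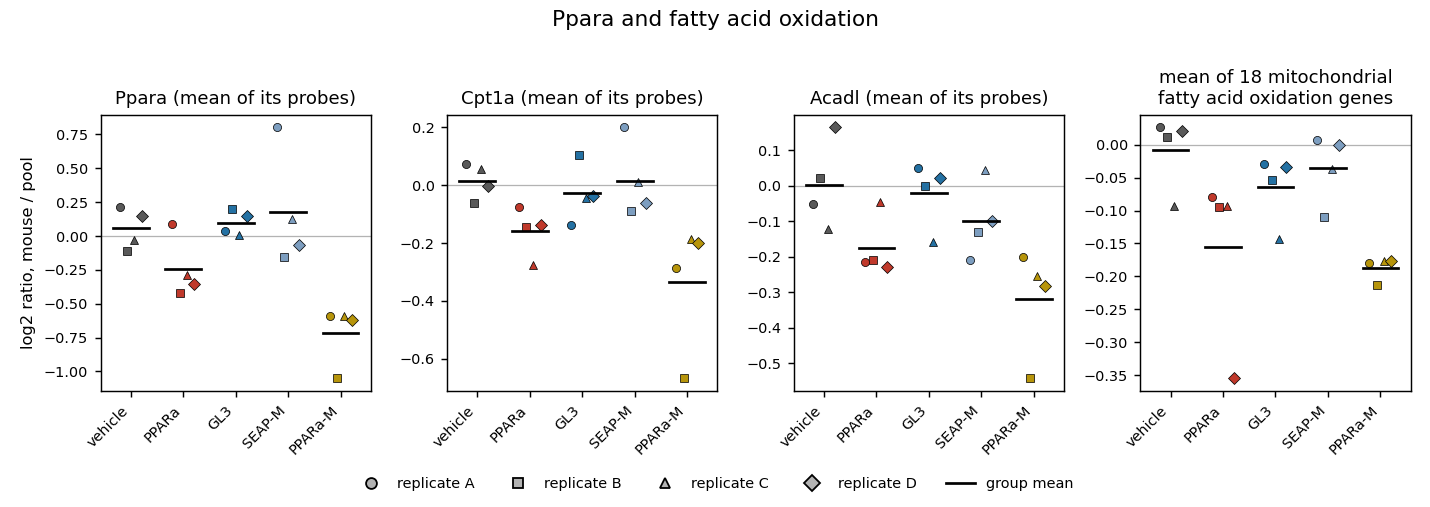
Log2 ratio to the vehicle pool (y axis) of Ppara, Cpt1a and Acadl, each averaged over its probes, and the mean over 18 genes of mitochondrial fatty acid oxidation, in the 5 treatment groups (x axis); points are mice, shapes are replicate letters and lines are group means. PPARa siRNA replicate A is at 0.09 for Ppara while the other three lie between -0.42 and -0.29, and replicate D stands apart in the list mean at -0.36.

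The question of the comparison is what the siRNA changed in the liver relative to the injected fluid alone. Of 23493 probes, 39 passed at an adjusted p under 0.05, which is 0.166% of those tested (limma, moderated over all 20 arrays, Benjamini-Hochberg adjustment over all probes). They were divided evenly, with 19 higher (0.0809%) and 20 lower (0.0851%), and 14 of the 39 changed more than 2-fold. In all 39 the values of the 4 PPARa siRNA mice and the 4 vehicle mice did not overlap, which was also so for 1.61% of all probes in the higher and 1.98% in the lower direction. At an unadjusted p under 0.05 there were 1440 probes (6.13%). Without PPARa siRNA replicate A or D, or vehicle replicate A, B or D, 10 to 12 probes passed as higher in place of 19. The probes that were higher came from 8 genes, and 18 of the 19 came from 7 genes that respond to signals: Egr1, Nr4a1, Dusp1, Junb, Btg2, Ier2 and Fos. The probes that were lower came from 11 named genes, among them Ass1 of the urea cycle, and from 9 probes without a gene symbol. Neither Ppara nor any gene of the lists for fatty acid oxidation was among them.

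The sequences just upstream of the start sites of the signal-responsive genes are shown here because these genes moved together. The RefSeq promoter table of the mouse assembly GRCm38.p6 held 5 of the 8 higher genes and 10 of the 11 lower ones; Egr1, Ier2, St8sia3 and 2810436B12Rik were not matched. A motif of 8 letters, TGACGTCA, known as the cAMP response element, and its first 5 letters, TGACG, which it contains, were searched on both strands in the 300 bases from 250 before to 50 after each start. TGACG was found in 5 of the 5 higher genes and in 1 of the 10 lower ones (Dcaf12), against 20.8% of 32851 promoters. TGACGTCA was found in 2 of the 5 and in 0 of the 10, against 1.79%. The motif was chosen with the higher genes already known, and no other motif was searched, so these counts are not independent evidence. A match is a description of the letters and says nothing of whether a factor binds there. Whether the motif has a part in the increases was not tested. In the stretches that follow, read 5′ to 3′ on the strand of the gene, capitals mark each TGACG or its reverse complement CGTCA, and the 8-letter motif where it is whole.
Btg2 (chr1:134079294-134079341, minus strand): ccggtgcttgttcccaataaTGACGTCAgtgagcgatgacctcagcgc
Dusp1 (chr17:26508588-26508683, minus strand): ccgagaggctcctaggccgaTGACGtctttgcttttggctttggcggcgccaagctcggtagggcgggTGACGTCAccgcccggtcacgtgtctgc
Fos (chr12:85473741-85473848, plus strand): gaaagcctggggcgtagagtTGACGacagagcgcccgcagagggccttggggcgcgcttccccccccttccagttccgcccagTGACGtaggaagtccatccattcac
Junb (chr8:84978830-84978874, minus strand): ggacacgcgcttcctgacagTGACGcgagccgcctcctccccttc
Nr4a1 (chr15:101266596-101266830, plus strand): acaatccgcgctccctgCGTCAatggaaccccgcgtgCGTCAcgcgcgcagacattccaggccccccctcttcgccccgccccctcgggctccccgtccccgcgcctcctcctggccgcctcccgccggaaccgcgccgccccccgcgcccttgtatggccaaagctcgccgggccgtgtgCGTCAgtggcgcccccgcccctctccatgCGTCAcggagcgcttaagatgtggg

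The increase in Egr1 was the largest among the named probes. Egr1 is a zinc-finger transcription factor and one of the classical immediate-early genes. Its log2 ratio to the pool was 2.70, 2.65, 2.62 and 1.70 in PPARa siRNA replicates A, B, C and D, and -0.41, -0.06, 0.38 and -0.25 in vehicle replicates A to D. The PPARa siRNA mice were thus all far above the pool, with replicate D below the other three, and the vehicle mice scattered around it. The difference was 2.50 ± 0.30 (log2 difference ± standard error, n = 4 mice per group), a 5.66-fold increase (adjusted p = 0.00196). All 4 probes of Egr1 passed, with log2 differences from 2.04 to 2.50.

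Junb, a subunit of the AP-1 transcription factor, stood at 1.45, 1.60, 1.73 and 1.15 with PPARa siRNA and at 0.06, -0.55, 0.30 and 0.10 with vehicle. Even the lowest of the siRNA mice, replicate D, was well above the highest vehicle mouse, and the difference of 1.51 ± 0.19 was a 2.84-fold increase (adjusted p = 0.00252). Its other probe also passed, at 0.69. Fos, which pairs with Jun proteins in AP-1, was at 0.57, 1.02, 0.66 and 0.60 with PPARa siRNA and at -0.08, -0.11, 0.28 and 0.05 with vehicle. It was highest in replicate B, and the groups did not overlap (log2 difference 0.68 ± 0.10, adjusted p = 0.00912). Only this 1 of the 4 Fos probes passed, and the others differed by 0.09 to 0.30.

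Btg2, an antiproliferative gene induced by p53 and by growth factors, was at 1.07, 1.43, 1.18 and 1.04 with PPARa siRNA and at -0.05, -0.43, 0.23 and 0.24 with vehicle. The 4 siRNA mice lay close together, and the level was 2.27-fold that of vehicle (log2 difference 1.18 ± 0.19, adjusted p = 0.0121). All 4 probes passed, with differences of 0.86 to 1.18. Ier2, a short immediate-early nuclear protein, was at 1.12, 1.17 and 1.25 in PPARa siRNA replicates A to C, and at 0.35 in replicate D, against -0.19 to 0.07 in the vehicle mice. Replicate D was the low one here as it was for Egr1 (log2 difference 1.00 ± 0.15, adjusted p = 0.00912, 1 probe).

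Nr4a1, an orphan nuclear receptor that in liver is induced by glucagon and cAMP, was at 1.94, 1.89, 1.04 and 1.78 with PPARa siRNA and at -0.01, 0.16, -0.06 and -0.06 with vehicle. Here replicate C and not D was the lowest of the siRNA mice, and the difference of 1.66 ± 0.29 was a 3.15-fold increase (adjusted p = 0.0221). Of its 5 probes 3 passed, and the other two differed by 0.12 and 0.14 with adjusted p of 0.752 and 0.626. Dusp1, a phosphatase that switches off MAP kinases, was at 1.54, 1.35, 1.81 and 1.31 with PPARa siRNA and at -0.38, 0.14, 0.13 and -0.01 with vehicle. It was 2.89-fold higher (log2 difference 1.53 ± 0.28, adjusted p = 0.0325), and all 3 of its probes passed. Over the 19 probes that were higher, replicate D was the lowest of the 4 siRNA mice in 12 and the highest in 0, and vehicle replicate C was the highest of the 4 vehicle mice in 12.

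The eighth gene, St8sia3, is a sialyltransferase known mainly from brain. Its values were 0.53, 0.28, 0.38 and 0.48 with PPARa siRNA and 0.14, -0.12, -0.01 and -0.13 with vehicle (log2 difference 0.45 ± 0.08, adjusted p = 0.0237, 1 probe). Its rise was the smallest of the 8.

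**Figure D2:**
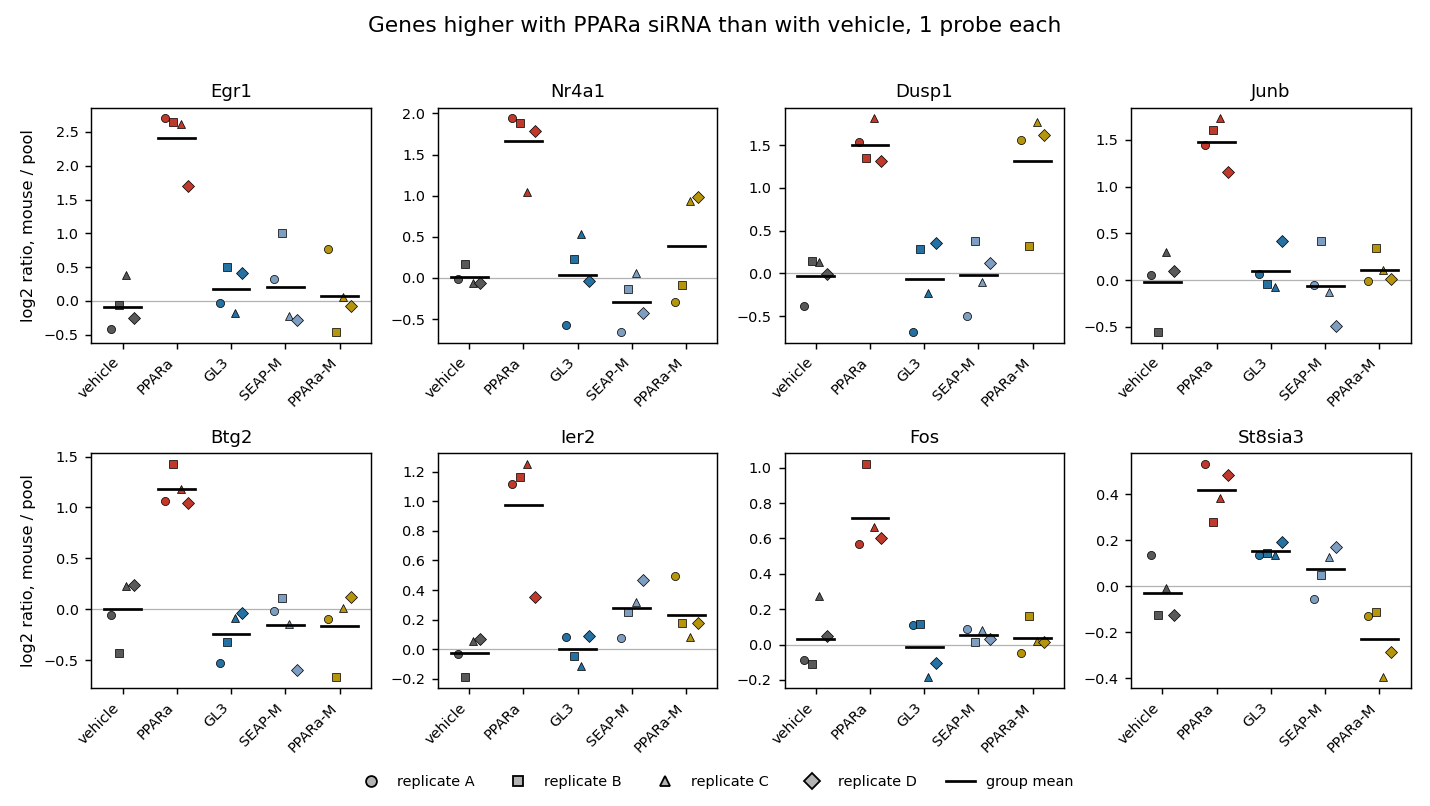
Log2 ratio of each mouse to the vehicle pool (y axis) in the 5 treatment groups (x axis; vehicle is Ringer's solution, the other names are siRNAs) for the 8 genes that passed as higher, with 1 probe each; each point is a mouse, its shape the replicate letter, and the line the group mean. The 4 PPARa siRNA mice lie between 1.70 and 2.70 for Egr1, where the highest mouse of any other group is at 1.01, whereas for Dusp1 3 of the 4 PPARa-M siRNA mice are as high as the PPARa siRNA mice.

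A list of 26 immediate-early genes puts these in context. It holds Egr1, Nr4a1, Dusp1, Junb, Ier2 and Fos, which had passed above in the same mice. Its counts and its median thus partly restate those calls and are not independent evidence. The median log2 difference of the list was 0.22, against 0.01 over all 15252 genes, and 21 of the 26 were above 0 (52.2% of all genes were). In the fit of 1 value per gene, in which 12 genes passed in all (0.0787%), 4 of the list passed, all higher: Junb, Egr1, Ier2 and Nr4a1. Without vehicle replicate A 1 of the list passed in place of 4. The list median was 0.13 without PPARa siRNA replicate B, with 17 of the 26 above 0, and 0.34 without vehicle replicate C. Taken by unadjusted p, 12 of the 26 were below 0.05 in the higher and 1 in the lower direction, where all genes gave 2.45% and 3.10%. Averaged over probes, Dusp1 (1.44, adjusted p = 0.0559) and Fos (0.34, adjusted p = 0.0647) came close to the threshold. Next by p were 2 genes named after their values were seen, Zfp36 (0.94, adjusted p = 0.180), which codes for an mRNA-destabilizing protein, and Dusp6 (0.68, adjusted p = 0.195), an ERK phosphatase. The member that was lower was Ccn2 (connective tissue growth factor) at -0.82 (adjusted p = 0.476), also chosen after its values were seen. Its GL3 control values, -1.17 to -0.42, were as far below the pool as those of PPARa siRNA, -1.05 to -0.67. Not all members moved: Egr2, Fosb and Maff, chosen after their values were seen, differed by 0.03, 0.08 and 0.00.

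Ass1, argininosuccinate synthase of the urea cycle, was the lower gene with the smallest adjusted p. It was at -0.24, -0.14, -0.23 and -0.34 with PPARa siRNA and at 0.36, 0.50, 0.38 and 0.53 with vehicle, a difference of -0.68 ± 0.10 and a 1.60-fold lower level (adjusted p = 0.00741). The vehicle mice themselves were all above the pool, and the siRNA mice were all below it. The means of the other siRNA groups were also below that of vehicle: -0.25 with GL3, -0.25 with SEAP-M and 0.03 with PPARa-M, against 0.44. Of these only the PPARa-M mean was not below the pool. The 4 PPARa siRNA mice and the 4 GL3 mice differed by 0.02 (adjusted p = 1.00). Among the 15 genes listed for the urea cycle and amino acid breakdown, Ass1 was the only one that passed, 11 were below 0, and the median was -0.07 with PPARa siRNA and -0.17 with GL3. Tdo2, which opens the tryptophan ring, was next at -0.58 (adjusted p = 0.682).

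Abhd17b, a depalmitoylase of membrane proteins, had the largest decrease among the named genes. Its values were -1.13, -0.59, -1.15 and -0.98 with PPARa siRNA and -0.00, -0.05, 0.35 and -0.22 with vehicle (log2 difference -0.98 ± 0.16, a 1.97-fold lower level, adjusted p = 0.0149). Cr1l, the rodent complement regulator also called Crry, was at -0.84, -0.68, -1.06 and -0.70 against -0.15, -0.20, 0.56 and -0.18 (log2 difference -0.83 ± 0.14, adjusted p = 0.0229). For both genes the siRNA mice were all below the pool, and vehicle replicate C was well above it. Pus3, a pseudouridine synthase that modifies tRNA, was at -0.82, -0.63, -0.60 and -0.50 against 0.09, -0.02, 0.20 and -0.10 (log2 difference -0.68 ± 0.11, adjusted p = 0.0121).

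The other lower genes changed less or passed by less. Rdh14, a retinol dehydrogenase, was at -0.26, -0.52, -0.66 and -0.54 against -0.01, -0.04, 0.12 and -0.08 (log2 difference -0.49 ± 0.08, adjusted p = 0.0146). Thap3, a zinc-finger DNA-binding protein, differed by -0.70 (adjusted p = 0.0279), Dcaf12, a substrate receptor of a cullin ubiquitin ligase, by -0.58 (adjusted p = 0.0320), and Ctso, a cysteine cathepsin, by -0.61 (adjusted p = 0.0325). Sri, a calcium-binding protein, differed by -0.62 (adjusted p = 0.0401), 2810436B12Rik by -0.79 (adjusted p = 0.0454) and Smim8, a small membrane protein, by -0.50 (adjusted p = 0.0463). Thap3, Dcaf12, Sri and Smim8 are each measured by 2 probes, and for each of them the other probe did not pass, with differences of -0.04, 0.02, -0.01 and -0.03. The 9 lower probes without a symbol differed by -1.07 to -0.49. Over the 20 lower probes, replicate B was the least lowered of the siRNA mice in 15 and replicate C the most lowered in 14, while vehicle replicate C was the highest vehicle mouse in 17 and replicate D the lowest in 13. Without PPARa siRNA replicate B, 54 probes passed as lower in place of 20. Only 3 did without vehicle replicate C and 3 without PPARa siRNA replicate D, and 4 to 7 did without PPARa siRNA replicate A or C or vehicle replicate A or B.

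**Figure D3:**
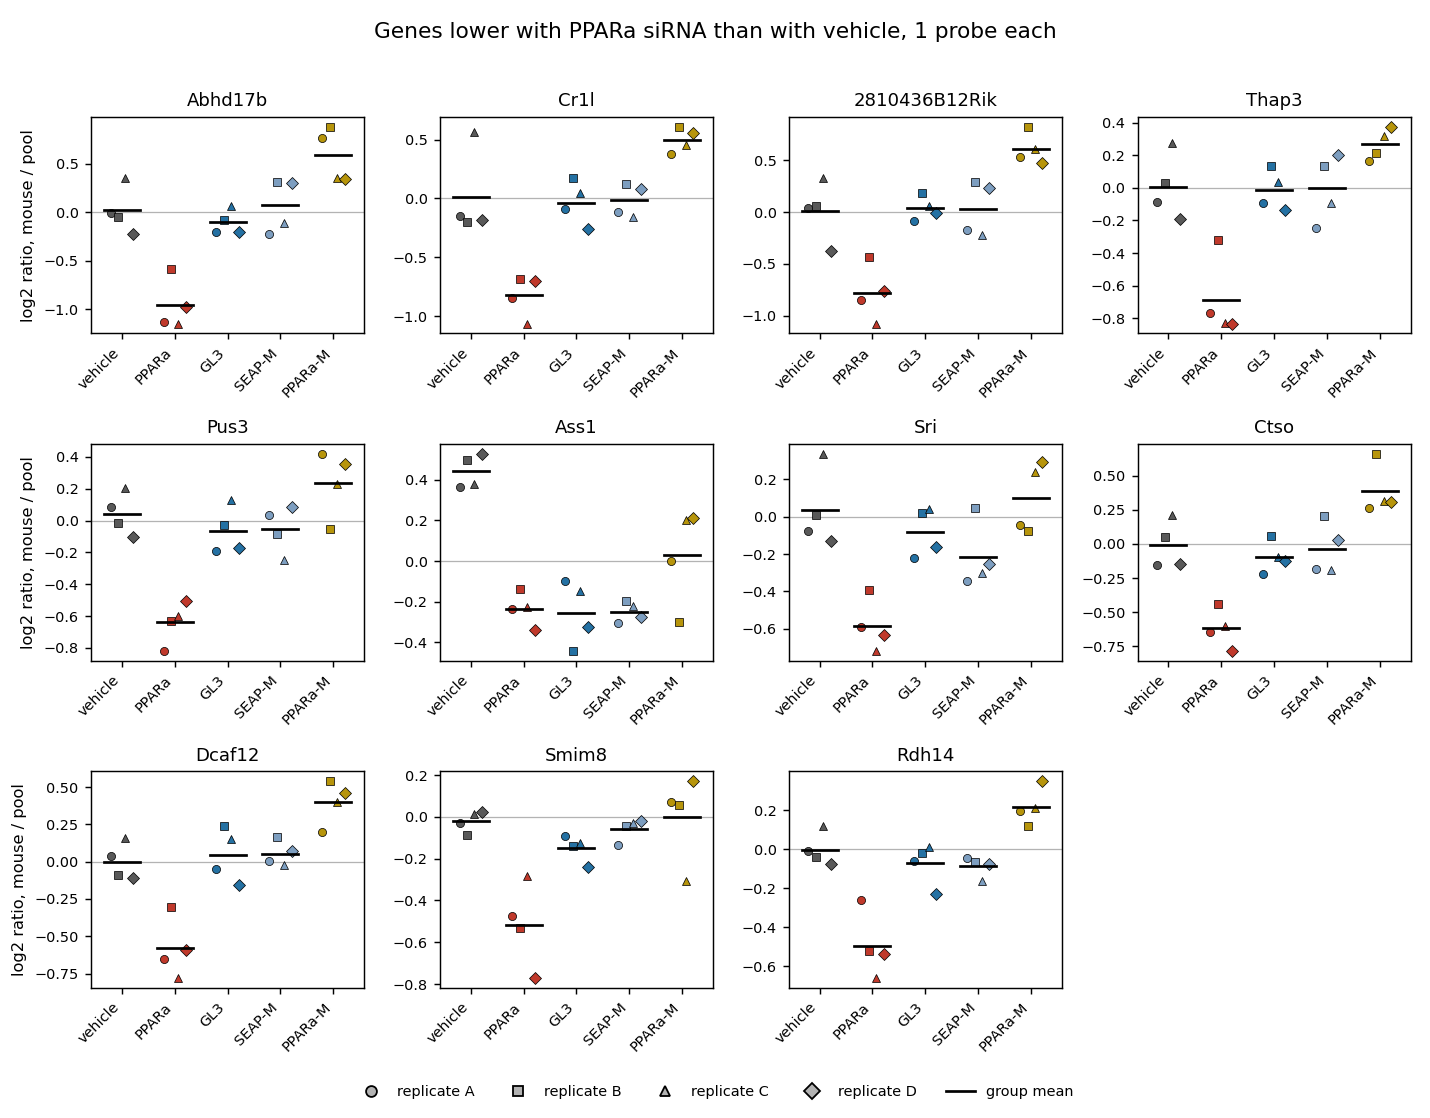
Log2 ratio of each mouse to the vehicle pool (y axis) in the 5 treatment groups (x axis) for the 11 genes that passed as lower, with 1 probe each; points are mice, shapes are replicate letters and lines are group means. Ass1 is as low with GL3 (mean -0.25) and SEAP-M (-0.25) as with PPARa siRNA (-0.24), while Abhd17b has means of -0.96 with PPARa siRNA, -0.10 with GL3 and 0.59 with PPARa-M.

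The control siRNA GL3 shows what an siRNA without a target in the mouse did in the same setting. Between GL3 and vehicle 2 probes passed (0.00851%), those of Ass1 and Gstt3, a theta-class glutathione transferase, both lower, and 642 had an unadjusted p under 0.05 (2.73%). Between PPARa siRNA and GL3 34 probes passed (0.145%), 19 higher (0.0809%) and 15 lower (0.0638%). Of the 39 probes that passed against vehicle, 29 (74.4%) also passed against GL3, and they are 85.3% of the 34. Both comparisons hold the same PPARa siRNA mice, so this share is not independent evidence. All 18 probes of the 7 signal-responsive genes passed against GL3 and St8sia3 did not (log2 difference 0.27, adjusted p = 0.384). Egr1 differed from GL3 by 2.25, Nr4a1 by 1.62, Dusp1 by 1.57, Btg2 by 1.42, Junb by 1.39, Ier2 by 0.97 and Fos by 0.73, with adjusted p between 0.00353 and 0.0297.

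Of the 20 lower probes 11 passed against GL3, among them those of Abhd17b (-0.86), 2810436B12Rik (-0.82), Cr1l (-0.79), Thap3 (-0.67), Dcaf12 (-0.63), Pus3 (-0.57) and Rdh14 (-0.42). The 15 lower calls against GL3 became 1 without GL3 replicate C, 3 to 6 without GL3 replicate A or B, 2 and 3 without PPARa siRNA replicates C and D, 27 without PPARa siRNA replicate B and 9 without PPARa siRNA replicate A or GL3 replicate D. With only these 2 groups in the fit, all 7 probes that passed were higher. Sri, Ctso and Smim8 did not pass against GL3 (adjusted p = 0.167, 0.105 and 0.254), with differences of -0.50, -0.52 and -0.37. Hnrnpa3, an RNA-binding protein, was lower against GL3 (-0.67, adjusted p = 0.0347) but differed from vehicle by -0.41 (adjusted p = 0.379). Ppp1r3g, a glycogen-targeting subunit of protein phosphatase 1 chosen after its values were seen, was at 2.46, 2.02, 0.77 and 1.09 with PPARa siRNA, at -0.27, 0.46, -0.74 and 0.33 with vehicle and at -0.37, -0.01, -0.91 and -0.95 with GL3. It passed against GL3 (log2 difference 2.15, adjusted p = 0.0126) and not against vehicle (1.64, adjusted p = 0.0740).

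PPARa-M siRNA, which targets the same mRNA at another place, did not share most of the changes that passed against vehicle. The labels do not say what the suffix M stands for, and whether the Ppara siRNAs differ in more than their target place is not known. Between PPARa siRNA and PPARa-M siRNA 2388 probes passed (10.2%), 968 higher (4.12%) and 1420 lower (6.04%). Of the 19 higher probes 16 were also higher than with PPARa-M, and the 3 exceptions were the probes of Dusp1. Dusp1 was at 1.56, 0.32, 1.78 and 1.62 in PPARa-M replicates A to D and differed by 0.18 between the Ppara siRNAs (adjusted p = 0.735). Nr4a1 was at 0.94 and 0.99 in PPARa-M replicates C and D and below the pool in A and B. Of the 20 lower probes 19 were lower than with PPARa-M, all but Ass1 (-0.27, adjusted p = 0.0979). In 19 of the 20 the PPARa-M mean was above the vehicle mean, and in 6 of these the difference passed. The share of all probes that did either was not counted, so whether these counts are unusual is not known. Over all genes the median log2 difference between PPARa-M and vehicle was -0.02. Abhd17b, for instance, averaged 0.59 with PPARa-M, 0.02 with vehicle and -0.96 with PPARa siRNA, a difference of -1.55 between the Ppara siRNAs (adjusted p = 7.16e-05). Cr1l, 2810436B12Rik, Ctso and Dcaf12 had the same adjusted p in this comparison, and all of them had passed as lower against vehicle. The higher genes with the smallest p in this comparison were others, and none of them passed against vehicle. They were Ces1g (0.95), a carboxylesterase, Aldh1a7 (0.86), an aldehyde dehydrogenase, H2-T18 (0.75), a class Ib MHC gene, Ldhd (0.65), D-lactate dehydrogenase, and Adhfe1 (0.61), a hydroxyacid transhydrogenase, which were higher with PPARa siRNA than with PPARa-M. PPARa siRNA differed from vehicle in these 5 by -0.35 to 0.13.

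Genes that PPAR-alpha is known to switch on were described by 6 lists and by their receptors, and none of them passed. The 18 genes of mitochondrial fatty acid oxidation had a median log2 difference of -0.13, 15 were below 0 (47.8% of all genes were), and an unadjusted p under 0.05 was reached by 6 in the lower and 0 in the higher direction. Smallest in p were Etfdh (-0.41, adjusted p = 0.364) and Etfa (-0.47, adjusted p = 0.405), which pass electrons from acyl-CoA dehydrogenases to the respiratory chain, Eci2 (-0.55, adjusted p = 0.463), an enoyl-CoA isomerase, and Acad10 (-0.26, adjusted p = 0.853), an acyl-CoA dehydrogenase family member. In the same order, GL3 differed from vehicle by -0.22, -0.27, -0.27 and -0.23 in these genes. PPARa siRNA differed from GL3 by -0.20, -0.20, -0.28 and -0.02. The mean over the list was -0.08, -0.09 and -0.09 in PPARa siRNA replicates A to C and -0.36 in D, against -0.09 to 0.03 in the vehicle mice. In the GL3 mice it was -0.14 to -0.03, and the list median of PPARa siRNA against GL3 was -0.09. Without PPARa siRNA replicate D the list median against vehicle was -0.06. Then 3 genes in place of 6 were lower than vehicle at an unadjusted p under 0.05, as was so without vehicle replicate D.

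Cpt1a, the carnitine acyltransferase through which long-chain fatty acids enter mitochondria, was at -0.08, -0.14, -0.27 and -0.14 with PPARa siRNA and at 0.07, -0.06, 0.06 and -0.00 with vehicle. The groups did not overlap, but the difference of -0.17 did not pass in limma's fit (adjusted p = 0.966; two-sided exact permutation test on Cpt1a alone, p = 0.0286, the smallest that 4 mice against 4 allow), and its 5 probes spread from -0.33 to 0.11. For Acadl, a dehydrogenase of long-chain acyl-CoA, the values were -0.22, -0.21, -0.04 and -0.23 against -0.05, 0.02, -0.12 and 0.16 (log2 difference -0.18, adjusted p = 0.893, exact p = 0.0857). With PPARa-M siRNA, Cpt1a and Acadl differed from vehicle by -0.35 and -0.32 (limma, adjusted p = 0.0328 and 0.0269). The 19 genes of peroxisomal oxidation and its partners had a median of -0.12, with 15 below 0 and 5 that were lower by unadjusted p. Against GL3 their median was also -0.12. Aldh3a2, a fatty aldehyde dehydrogenase, differed by -0.44 (adjusted p = 0.463) and Hsd17b4, the bifunctional enzyme of peroxisomes, by -0.32 (adjusted p = 0.596).

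Among 38 other targets of PPAR-alpha in mouse liver, 26 were below 0, with a median of -0.07. Against GL3 the median of these 38 was 0.005. Retsat, a retinol saturase, differed by -0.53 (adjusted p = 0.544), Vnn1, a pantetheinase, by -0.33 (adjusted p = 0.624) and Acsm3, a medium-chain acyl-CoA synthetase, by -0.32 (adjusted p = 0.813), while Tmem97, a sterol-regulated membrane protein, differed by 0.23 (adjusted p = 0.796). Angptl4, an inhibitor of lipoprotein lipase chosen after its values were seen, was at -0.13, -0.73, -0.92 and -1.95 with PPARa siRNA and at 0.03, 0.22, 0.04 and -0.29 with vehicle (log2 difference -0.93, adjusted p = 0.813). The Cyp4 hydroxylases (10 genes, median -0.07), the acyl-CoA thioesterases and acyltransferases (11 genes, -0.09), peroxisome biogenesis (12 genes, -0.04) and the receptors with their partners and coregulators (17 genes, -0.05) had no member past the threshold. The first and the third of these medians changed sign with single mice. That of the Cyp4 genes was 0.04 without PPARa siRNA replicate D and -0.19 without replicate C, and that of peroxisome biogenesis was 0.03 without vehicle replicate D and 0.00 without PPARa siRNA replicate B. The median of the thioesterases and acyltransferases was -0.04 without PPARa siRNA replicate D. Against GL3 the medians were -0.03 for the Cyp4 genes and -0.08 for the thioesterases and acyltransferases. They were -0.02 for peroxisome biogenesis and 0.02 for the receptors with their partners and coregulators. With PPARa-M siRNA the medians relative to vehicle were -0.18 for mitochondrial oxidation, -0.23 for peroxisomal oxidation and -0.20 for the 38 other targets. They were -0.07 for the Cyp4 genes and 0.03 for the thioesterases and acyltransferases. For peroxisome biogenesis and the receptors with their partners they were -0.27 and -0.03.

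**Figure D4:**
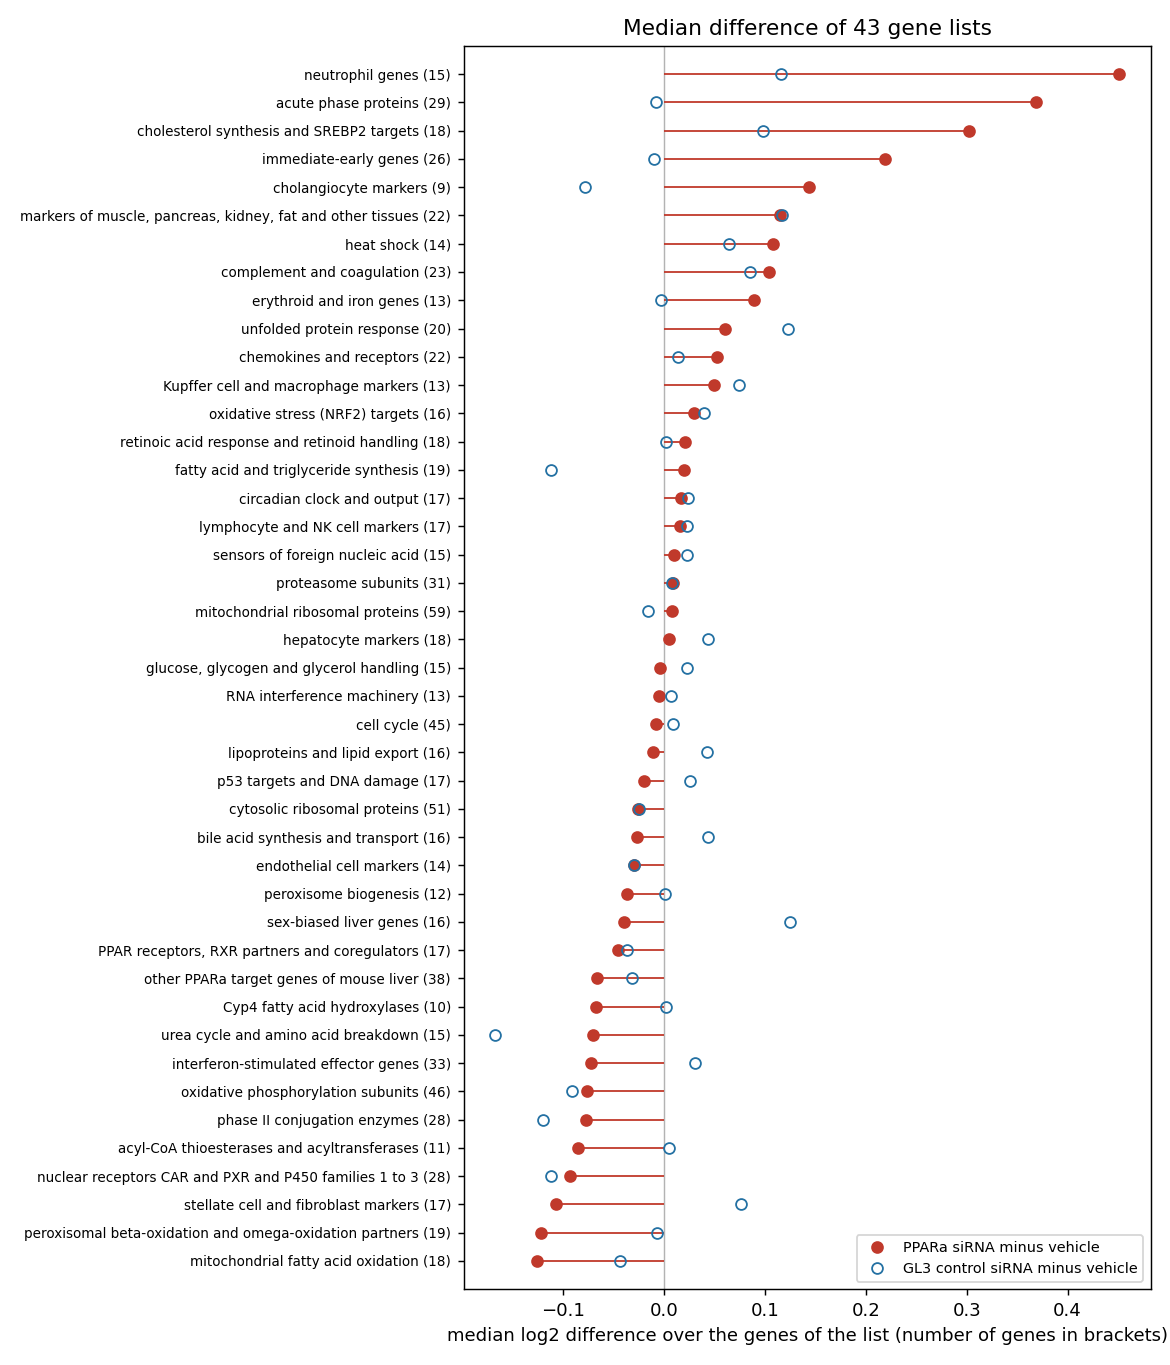
Median log2 difference (x axis) over the genes of each of 43 lists (y axis, number of genes in brackets) between PPARa siRNA and vehicle (filled) and between GL3 control siRNA and vehicle (open); the comparisons share the vehicle mice. Neutrophil genes (0.45), acute phase proteins (0.37), cholesterol synthesis (0.30) and immediate-early genes (0.22) are the highest medians for PPARa siRNA, and mitochondrial fatty acid oxidation (-0.13) is the lowest.

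Of 43 lists, neutrophil genes and acute phase proteins had the highest medians, and replicate D of PPARa siRNA stood far above the other mice in both. The 15 neutrophil genes had a median of 0.45, with 14 above 0. An unadjusted p under 0.05 was reached by 6, all higher, and 0 passed after adjustment. Their mean was 0.33, 0.31, -0.17 and 1.90 in PPARa siRNA replicates A, B, C and D and -0.24 to 0.14 in the vehicle mice. Ngp, a granule protein of neutrophils, was at 1.49, 1.21, 0.16 and 4.41 (log2 difference 1.87, adjusted p = 0.492), S100a9, a calprotectin subunit, at 1.23, 0.76, -0.45 and 4.28 (1.65, adjusted p = 0.848) and Ltf, lactoferrin, at 0.20, 0.11, 0.13 and 2.18 (0.72, adjusted p = 0.853). Replicate D was thus the highest for each of them. Mmp9, a matrix protease of neutrophils, differed by 0.45 (adjusted p = 0.726).

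The 29 acute phase genes, which the liver raises in inflammation, had a median of 0.37, with 27 above 0, 7 that were higher by unadjusted p and 0 past the adjusted threshold. Their mean was 0.36, -0.03, -0.16 and 1.38 in replicates A to D and -0.32 to 0.17 in the vehicle mice. Saa1, serum amyloid A, was at 1.10, -0.24, -0.33 and 3.21 (log2 difference 1.30, adjusted p = 0.809), and Socs3, an inhibitor of cytokine signalling, at 0.30, 1.28, 1.07 and 2.19 against -0.68, -1.36, 0.67 and 0.45 (1.44, adjusted p = 0.544). Orm1 and Orm3, acid glycoproteins of serum, differed by 0.73 and 0.59 (adjusted p = 0.780 and 0.809), and the chemokine Cxcl1 by 1.43 (adjusted p = 0.544). Without replicate D the medians of the neutrophil and acute phase lists were 0.15 and 0.07, and 1 gene of each list was higher at an unadjusted p under 0.05. Without vehicle replicate A or B 2 and 3 of the neutrophil genes were, and without vehicle replicate B 4 of the acute phase genes, whose median was then 0.22. Without PPARa siRNA replicate B or C, 11 of the acute phase genes were, with list medians of 0.53 and 0.59. In PPARa siRNA replicate D Egr1 and Ier2 were the lowest of the 4, and the part of the neutrophil and acute phase genes in the other results was not tested.

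The 18 genes of cholesterol synthesis had a median of 0.30, with 17 above 0, 3 that were higher by unadjusted p and 0 past the adjusted threshold. Stard4, a sterol carrier, differed by 0.44 (adjusted p = 0.813), Dhcr7 by 0.42 (adjusted p = 0.853) and Sc5d by 0.33 (adjusted p = 0.893). Dhcr7 and Sc5d are enzymes of the final steps of the pathway. The list mean was 0.48, -0.17, 0.37 and 0.39 in PPARa siRNA replicates A to D, and 0.04, 0.07, -0.53 and 0.32 in the vehicle mice. Vehicle replicate C was low, and without it the median was 0.11 and 0 of the 18 were higher by unadjusted p. Replicate B was the low one with PPARa siRNA, and without it the median was 0.46 and 9 of the 18 were higher by unadjusted p. Against GL3 the median was 0.19, and with PPARa-M siRNA the same genes lay at a median of -0.82 relative to vehicle.

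**Figure D5:**
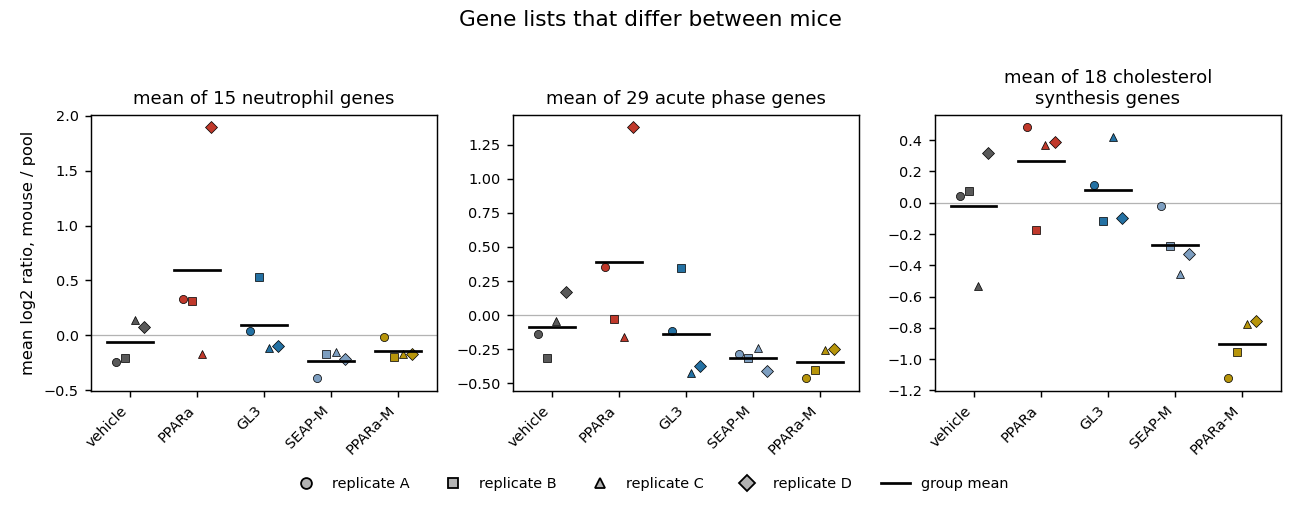
Mean log2 ratio to the vehicle pool (y axis) over 15 neutrophil genes, 29 acute phase genes and 18 cholesterol synthesis genes in the 5 treatment groups (x axis); points are mice, shapes are replicate letters and lines are group means. PPARa siRNA replicate D is at 1.90 and 1.38 in the first pair of panels, far above the other mice of its group, and vehicle replicate C is at -0.53 in the last.

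Genes that can respond to delivered nucleic acid had medians near 0. The 33 interferon-stimulated genes had a median of -0.07, the 15 sensors of foreign nucleic acid 0.01 and the 13 genes of RNA interference 0.00, with no member past the adjusted threshold in either direction. Over the single mice left out, these medians lay between -0.13 and 0.02. With PPARa-M siRNA the mean over the interferon-stimulated genes was 0.06 and -0.13 in replicates A and B and 1.27 and 1.26 in C and D, so that its median of 0.45 relative to vehicle was not shared by all 4 mice. The 45 cell cycle genes (median -0.01) varied between mice, with list means of -0.31, -0.04, -0.17 and 0.27 in PPARa siRNA replicates A to D. For markers of other cells of the liver the medians were 0.05 for 13 Kupffer cell genes, 0.02 for 17 lymphocyte genes, -0.03 for 14 endothelial genes, -0.11 for 17 stellate cell genes and 0.14 for 9 cholangiocyte genes. Single mice moved these: the stellate cell median was 0.00 without vehicle replicate C and -0.01 without PPARa siRNA replicate C, the cholangiocyte median was 0.06 without vehicle replicate A, and the Kupffer cell median was -0.02 without PPARa siRNA replicate B. Hepatocyte markers were mixed, with 10 above and 8 below 0. At an unadjusted p under 0.05, 1 was higher and 3 were lower, where all genes gave 2.45% and 3.10%. Their mean was -0.24 to -0.12 in the PPARa siRNA mice and -0.14 to -0.02 in the vehicle mice. Alb, albumin, was at -0.98, -0.21, -0.83 and -0.12 with PPARa siRNA and at -0.23, 0.94, -0.15 and 1.02 with vehicle (log2 difference -0.93, adjusted p = 0.702).

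Other lists held single members with larger differences. Among markers of other tissues, Acta1, the actin of skeletal muscle, was at 2.08, 0.59, 1.94 and 3.24 with PPARa siRNA, at -0.32, -0.99, -0.89 and 1.21 with vehicle (log2 difference 2.21, adjusted p = 0.607), and at 2.83, 2.53, 1.88 and 0.46 with GL3, so that PPARa siRNA and GL3 differed by 0.04. Gadd45a, a p53 and stress target, was at 0.94, 0.54, 0.74 and 0.95 against 0.20, -0.43, 0.09 and 0.34 (log2 difference 0.74, adjusted p = 0.289). Rps10 and Rpl11, proteins of the ribosome, differed by -0.53 (adjusted p = 0.204) and -0.59 (adjusted p = 0.373), while the median of the 51 cytosolic ribosomal proteins was -0.03. Gsta2, a glutathione transferase, differed by -0.55 (adjusted p = 0.607), Aldh1a1, a retinaldehyde dehydrogenase, by -0.63 (adjusted p = 0.521) and Asns, asparagine synthetase of the unfolded protein and amino acid responses, by 0.76 (adjusted p = 0.598).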

How the data were processed

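Liver RNA of 20 mice in 5 groups of 4 was hybridized by the authors, each against a pool of 4 vehicle livers, on custom 2-colour oligonucleotide arrays. The deposited values are log10 ratios of mouse to pool for 23493 probes, limited to 2 and -2 (16 values of these 8 arrays are at the limit). Scanner, background correction and normalization are not given in the sources used here, and signal intensities were not used here. The values were used as deposited, after conversion to log2.

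A limma 3.58.1 model (R 4.3.3) with 1 mean per group and variances moderated over all 20 arrays was fitted to all probes, and to 15252 genes averaged over probes with a single symbol. The Benjamini-Hochberg threshold was 0.05, and n = 4 limits the precision. Permutation tests were exact, in Python 3.11.15. Symbols follow the platform annotation; 65 probes with several symbols and 4638 with none are unnamed.

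Named were Ppara, Cpt1a, Acadl, up to 15 genes per direction with the largest change among probes that passed and did not overlap, up to 4 members per list with the smallest p and up to 5 genes per direction in the other comparisons; exceptions are stated. Members and lists were chosen with earlier results of these data known. Nothing shows that the replicate letters pair mice: their deviations from the group means correlated at 0.22, -0.08, -0.17 and 0.19. The limma p-values set each difference against the spread between mice within all 5 groups, not within the compared groups alone. Alternatives were 3 scalings, array weights, robust moderation, 2 groups alone, a replicate block, 1 value per gene, probe filters, stricter thresholds and each array left out. List values without single arrays were added after seeing the data.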

Additional observations from a re-analysis of the deposited data

Results flagged for a closer look

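In 11 of 122 sets of 4 mice examined, 1 mouse stood apart from the others by Dixon's test for a single extreme value, which chance gives in about 1 set in 20. PPARa siRNA replicate D was low for Egr1 (1.70, the others 2.62 to 2.70), Ier2 (0.35, the others 1.12 to 1.25), Aldh1a1 (-0.62, the others -0.20 to -0.16) and the mean of mitochondrial fatty acid oxidation (-0.36, the others -0.09 to -0.08), and high for Ltf (2.18, the others 0.11 to 0.20). PPARa siRNA replicate B was high for Thap3 (-0.32, the others -0.83 to -0.77) and low for Tmem97 (0.028, the others 0.25 to 0.28), and replicate C was high for Acadl (-0.045, the others -0.23 to -0.21). Vehicle replicate C was high for Cr1l (0.56, the others -0.20 to -0.15) and low for the mean of mitochondrial fatty acid oxidation (-0.093, the others 0.01 to 0.03), and vehicle replicate B was high for Retsat (0.54, the others 0.01 to 0.10).

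The effect of PPARa siRNA relative to vehicle differed from that of GL3, past the limma threshold, for probes of Egr1 (2.25), Nr4a1 (1.62), Dusp1 (1.57), Btg2 (1.42), Junb (1.39), Ier2 (0.97), Fos (0.73), Abhd17b (-0.86), 2810436B12Rik (-0.82), Cr1l (-0.79), Thap3 (-0.67), Dcaf12 (-0.63), Pus3 (-0.57) and Rdh14 (-0.42). It differed from that of PPARa-M siRNA for Egr1 (2.35), Junb (1.37), Btg2 (1.34), Nr4a1 (1.28), Ier2 (0.74), Fos (0.68) and St8sia3 (0.65), and in the other direction for Abhd17b (-1.55), 2810436B12Rik (-1.39), Cr1l (-1.32), Ctso (-1.004), Dcaf12 (-0.98), Thap3 (-0.96), Pus3 (-0.87), Rdh14 (-0.71), Sri (-0.69) and Smim8 (-0.51). These are log2 differences between siRNAs, and the probes were chosen by their difference from vehicle with the same PPARa siRNA mice.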

How the results depend on the processing

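Between PPARa siRNA and vehicle 39 probes passed. With quantile normalization 21 passed (12 higher, 9 lower), with each array scaled to 1 interquartile range 22 (14 and 8), with only the 2 groups compared in the fit 9 (8 and 1), with 1 value per gene 12, and at an adjusted p under 0.01 10. Leaving out 1 mouse gave 15 (without PPARa siRNA replicate D) to 71 (without PPARa siRNA replicate B), and 17, 18, 18, 18 and 19 without PPARa siRNA replicates A and C and vehicle replicates A, B and C. Between PPARa siRNA and GL3, where 34 passed, the same 5 settings gave 20, 19 (15 and 4), 7, 8 and 13, array weights gave 73, and leaving out 1 mouse gave 12 (without GL3 replicate C) to 41 (without PPARa siRNA replicate B), with 22, 17 and 17 without PPARa siRNA replicates A, C and D and 19 without GL3 replicate A or B. Between GL3 and vehicle, where 2 passed, quantile normalization and a further threshold of 1.5-fold each gave 1, and the fit of 2 groups, the replicate block, a filter for probes over 1.2-fold from the pool and an adjusted p under 0.01 each gave 0, as leaving out 1 mouse gave 0 to 1. Between PPARa siRNA and PPARa-M, where 2388 passed, quantile normalization gave 699 (146 higher), interquartile scaling 822 (149 higher), the fit of 2 groups 985, 1 value per gene 1375, an adjusted p under 0.01 1012 and the further 1.5-fold threshold 922. The causes were not tested.

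Fitting the replicate letter as a block gave 44 probes between PPARa siRNA and vehicle, 34 of them among the 39, 35 against GL3 and 2397 against PPARa-M. The block left Ppara at -0.30 (paired exact sign-flip test, p = 0.125, the smallest that 4 pairs allow), and over the mice left out in turn Ppara differed by -0.41 to -0.24. None of the probes of the 8 higher and 11 lower genes reversed its direction against vehicle in the 17 settings run on probes. Of the 8 higher and 11 lower genes, 3 (Egr1, Nr4a1 and Dusp1) and 1 (Ass1) passed with only the 2 groups in the fit, 5 and 2 without PPARa siRNA replicate A, 5 and 2 without replicate D and 5 and 2 without vehicle replicate C, and Egr1 and Ass1 passed in all 17. With 4 arrays per group and no signal intensities, dim probes cannot be told from unchanged ones.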
